A study of Mus musculus with 12 samples.

Results

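The transcripts described here encode the proteins of active DNA demethylation by oxidation and base excision. The 10 genes are the TET oxidases Tet1, Tet2 and Tet3, the CXXC zinc finger genes Cxxc4 and Cxxc5, the glycosylases Tdg, Neil1, Neil2 and Neil3, and the endonuclease Apex1. They were taken by name from the 26742 genes of the count table. All 10 were found, and all 10 passed the filter on low counts that left 16627 genes for testing. The levels come from RNA-seq of male mouse embryonic stem (ES) cells of the 129 or the B6J background, grown in serum with the cytokine LIF. Each background was treated daily from day 0 to day 5 with the solvent DMSO or with 1 µM PD 0325901, an inhibitor of the kinase MEK. This made 4 groups of 3 libraries, 1 for each background and treatment. The labels do not say whether the 3 libraries of a group were separate cultures, so the p-values measure only how these libraries scatter, in part perhaps for technical reasons. They give 129 or B6J as the genotype and name no cell line or clone, so background and line cannot be told apart.

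TET enzymes oxidise 5-methylcytosine stepwise to 5-hydroxymethylcytosine, 5-formylcytosine and 5-carboxylcytosine. TDG cuts out the last forms, NEIL glycosylases can help to clear the site that TDG leaves, and APEX1 nicks the DNA there so that a plain cytosine can be filled in. In mouse ES cells Tet1 and Tet2 are the main TET genes, Tet3 is better known from the egg and from differentiating cells, and MEK inhibition is part of the culture media in which ES cells lose DNA methylation.

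Library totals ran from 62634533 to 96341637 counts. In each group 1 library differed most from the others over all genes: replicate 1 in both 129 groups and in B6J with DMSO, and replicate 3 in B6J with the inhibitor (chi-square per degree of freedom of 44.57 to 185.1 against the other 2 libraries, which gave 7.166 to 27.86 between themselves). The 8 ES cell markers summed to between 2704 and 4397 CPM (counts put on a common library size, with TMM scaling) in every library, and none of them was at 0. In DMSO 3 of them were called higher in B6J than in 129 (Dppa5a, Tdgf1, Utf1) and 1 lower (Zfp42, 35.72 against 289 CPM). In the inhibitor 1 was higher (Tdgf1) and 1 lower (Zfp42, 67.36 against 480.8 CPM). Of all tested genes 20.9% differed between backgrounds in DMSO and 18.4% in the inhibitor. With the inhibitor against DMSO, 5 of the 8 ES cell markers rose and 0 fell in 129. In B6J 4 rose and 1 fell (Utf1). Of all tested genes 35.7% were called in 129 and 31.1% in B6J. The ES cell markers summed to 2704 to 3690 CPM with DMSO and 4339 to 4380 CPM with the inhibitor in 129. In B6J the sums were 3526 to 4386 and 4221 to 4397 CPM, which overlapped. The 13 primitive endoderm markers summed to 10510 CPM in replicate 1 of 129 with DMSO and to 961.4 to 2328 CPM in the other 11 libraries. Of them 7 fell and 0 rose with the inhibitor in 129 (Cubn, Foxa2, Gata4, Gata6, Lamb1, Pdgfra, Sox17). In B6J 1 fell (Amn) and 0 rose. In DMSO 5 were lower and 1 higher in B6J than in 129. Foxa2 had 6.455 to 22.01 CPM in 129 with DMSO and up to 1.905 CPM in the other groups, so its difference was not confined to replicate 1. Gata4, Lamb1, Pdgfra and Sox17 overlapped between the 129 groups. The 18 fibroblast markers summed to 3017 to 5853 CPM in 129 with DMSO and 6725 to 10750 CPM with the inhibitor, and to 4272 to 5139 and 6069 to 10260 CPM in B6J. Of these markers 12 rose in 129 and 10 in B6J, 0 fell, and none was at 0 in any library. In bulk RNA fewer cells of a type and less RNA per cell cannot be told apart. Fits were also run with a fibroblast covariate (the mean log2 CPM of these markers) and without replicate 1 of 129 with DMSO. For the 10 genes their effect on the inhibitor response is given where it changed a call or sign, or moved the value over 1.5 times. For other genes not every such change is given. The covariate was 5.132 to 6.098 in 129 with DMSO and 6.326 to 6.949 with the inhibitor. In B6J it was 5.651 to 5.992 and 6.262 to 6.879. It thus separated the treatments in each background, so a fit with it can remove or create a response.

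The changed genes included enzymes of both the oxidation and the excision step, and over all 12 libraries more of the 10 fell than rose. In 129, 1 of the 10 rose (Apex1) and 5 fell (Tet3, Tdg, Cxxc4, Neil2, Neil3), where 35.7% of all tested genes were called, 17.4% higher and 18.2% lower. In B6J, 2 rose (Tet2, Apex1) and 4 fell (Tet3, Tdg, Cxxc4, Neil3), where 31.1% of all tested genes were called, 14.6% higher and 16.5% lower. This balance did not hold with the fibroblast covariate, although that fit cannot fully part the covariate from the treatment. With it 2 rose (Tet2, Apex1) and 2 fell (Tet3, Tdg) in 129. In B6J 3 rose (Tet1, Tet2, Apex1) and 2 fell (Tet3, Tdg). Over all genes, alternatives other than single-library omissions, the covariate among them, called 4693 to 6864 in 129 and 4711 to 7012 in B6J. The median log2 fold change of the 10 was -0.40 in 129 and -0.22 in B6J, against -0.01 and 0.00 over all tested genes. Apex1, Tet3, Tdg, Cxxc4 and Neil3 were called with the same sign in both backgrounds. None of the 10 differed in response between the backgrounds (0 of 10 by edgeR, DESeq2 and limma-voom, and 1, Neil2, at an unadjusted edgeR p under 0.05). By edgeR 1.48% of all tested genes differed in response, 0.71% with a higher and 0.77% with a lower value in B6J.

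**Figure D1:**
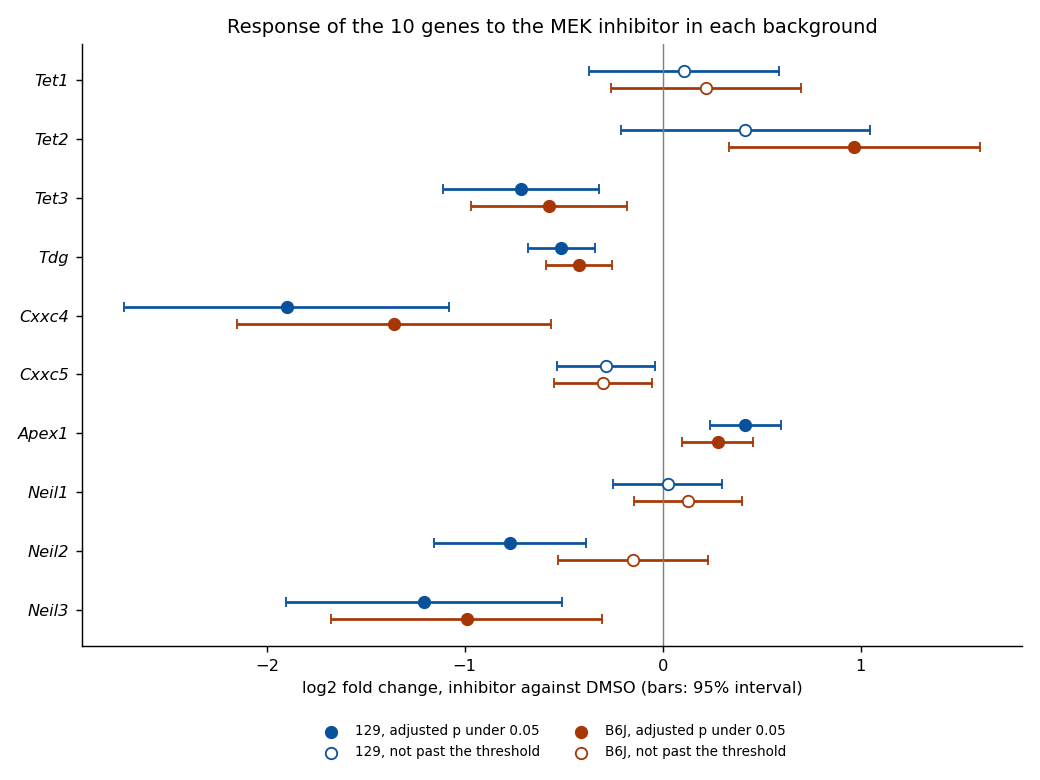
Log2 fold change with the MEK inhibitor against DMSO for each of the 10 genes (x axis, bars are 95% intervals of the fit), in 129 (blue) and B6J (brown), filled where the adjusted p was under 0.05. Tet3, Tdg, Cxxc4 and Neil3 lie left of 0 and Apex1 right of 0 in both backgrounds, and Tet2 was called in B6J alone without a called difference between the backgrounds.

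Tet1 (chromosome 10, 62804570 to 62908996, minus strand, GRCm38) had the highest level of the TET genes in every group. Its 3 libraries gave 518, 661.4 and 649.2 CPM in 129 with DMSO and 455.3, 777.6 and 740.4 CPM with the inhibitor. In B6J they gave 463.7, 615.7 and 608.8 CPM with DMSO and 793.9, 690.8 and 482.3 CPM with the inhibitor. The groups overlapped, and the lowest library of each group was the one that stood apart over all genes. The log2 fold change was 0.11 in 129 (95% interval -0.37 to 0.59, adjusted p = 0.722) and 0.22 in B6J (-0.26 to 0.70, adjusted p = 0.491). With the fibroblast covariate it was 0.73 in 129 (adjusted p = 0.051) and 0.66 in B6J (adjusted p = 0.0373), so in B6J the covariate made the rise a called one. Without replicate 1 of 129 with DMSO the value in 129 was 0.01 (adjusted p = 0.986).

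Tet2 (chromosome 3, 133463679 to 133545139, minus strand), which lacks the DNA-binding CXXC domain that Tet1 and Tet3 carry, was higher with the inhibitor in B6J. It had 70.44, 114.7 and 103 CPM in B6J with DMSO and 235.6, 200.6 and 127.6 CPM with the inhibitor. Every B6J library with the inhibitor was above every one with DMSO, although the third lay close to them. The rise was 1.96-fold (log2 0.97, SE 0.29, adjusted p = 0.0246). In 129 the libraries gave 84.64, 139 and 130.4 CPM with DMSO and 106.3, 199.4 and 167.5 CPM with the inhibitor, and these overlapped (log2 0.42, SE 0.29, adjusted p = 0.279). The difference between the responses was 0.55 with a 95% interval of -0.34 to 1.44 (adjusted p = 0.646). As with Tet1, the lowest Tet2 library of each group was the one that stood apart over all genes. The rise in B6J was no longer called without replicate 1 or 3 of the DMSO group (adjusted p = 0.0895 and 0.0576), nor without replicate 1 or 2 of the inhibitor group (0.0911 and 0.0758). With the fibroblast covariate the log2 fold change was 1.30 in 129 (adjusted p = 0.0138) and 1.55 in B6J (adjusted p = 0.00138). Without replicate 1 of 129 with DMSO it was 0.23 in 129 (adjusted p = 0.566).

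Tet3 (chromosome 6, 83362373 to 83459084, minus strand) fell in both backgrounds. It had 44.33, 26.82 and 26.78 CPM in 129 with DMSO and 17.57, 22.37 and 19.79 CPM with the inhibitor. Its B6J libraries gave 20.14, 23.79 and 24.66 CPM with DMSO and 14.93, 15.21 and 15.91 CPM with the inhibitor. Neither pair of groups overlapped, and replicate 1 of 129 with DMSO, the library rich in primitive endoderm markers, had the highest value of all 12. The log2 fold change was -0.71 in 129 (SE 0.18, adjusted p = 0.00964) and -0.57 in B6J (SE 0.18, adjusted p = 0.0306). Without that library the value in 129 was -0.43 (adjusted p = 0.0122). With the fibroblast covariate the values were -1.10 in 129 (adjusted p = 0.00311) and -0.88 in B6J (adjusted p = 0.00572). Fitted on the 129 groups alone the call was lost (-0.72, adjusted p = 0.0515). In B6J it was lost with a block for replicate number (adjusted p = 0.0553) and when replicate 3 of 129 with the inhibitor was left out (0.0511). Leaving out a B6J library also lost it, for DMSO replicates 2 and 3 (0.0838 and 0.0991) and inhibitor replicates 1, 2 and 3 (0.0955, 0.0937 and 0.0681).

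Levels were also set against the length of all annotated exons of each gene. The lengths of the transcripts expressed were not measured, so the size of a share depends on this choice. The share of Tet2 in the summed TET level was higher in every inhibitor library than in every DMSO library of its background. Summed over the 3 genes, CPM per kilobase of exon was 48.4 ± 6.27 in 129 with DMSO, 53.1 ± 14.3 in 129 with the inhibitor, 43.5 ± 7.03 in B6J with DMSO and 54.5 ± 13.5 in B6J with the inhibitor (SD, n = 3 each), and the libraries with DMSO and with the inhibitor overlapped in both backgrounds. Tet2 made up 12.2, 15.7 and 15.1% of this sum in 129 with DMSO and 17.1, 18.6 and 16.8% with the inhibitor. In B6J its share was 11.8, 14.1 and 13% with DMSO and 21.1, 20.7 and 19% with the inhibitor. The shares did not overlap in either background, whereas the Tet2 level itself overlapped in 129. The ratio of Tet1 to Tet2 was 5.77 ± 0.80 and 4.58 ± 0.29 in 129 and 6.50 ± 0.66 and 3.86 ± 0.24 in B6J (DMSO and inhibitor, SD, n = 3), also without overlap. An exact two-sided permutation test of the share or the ratio gave p = 0.1 in each background, and p = 0.25 with the 129 libraries taken as pairs. These are the smallest values that 3 against 3 libraries or 3 pairs allow, so the test could not pass the threshold. These ratios within a library do not depend on library scaling, and they were examined after the levels were seen.

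**Figure D2:**
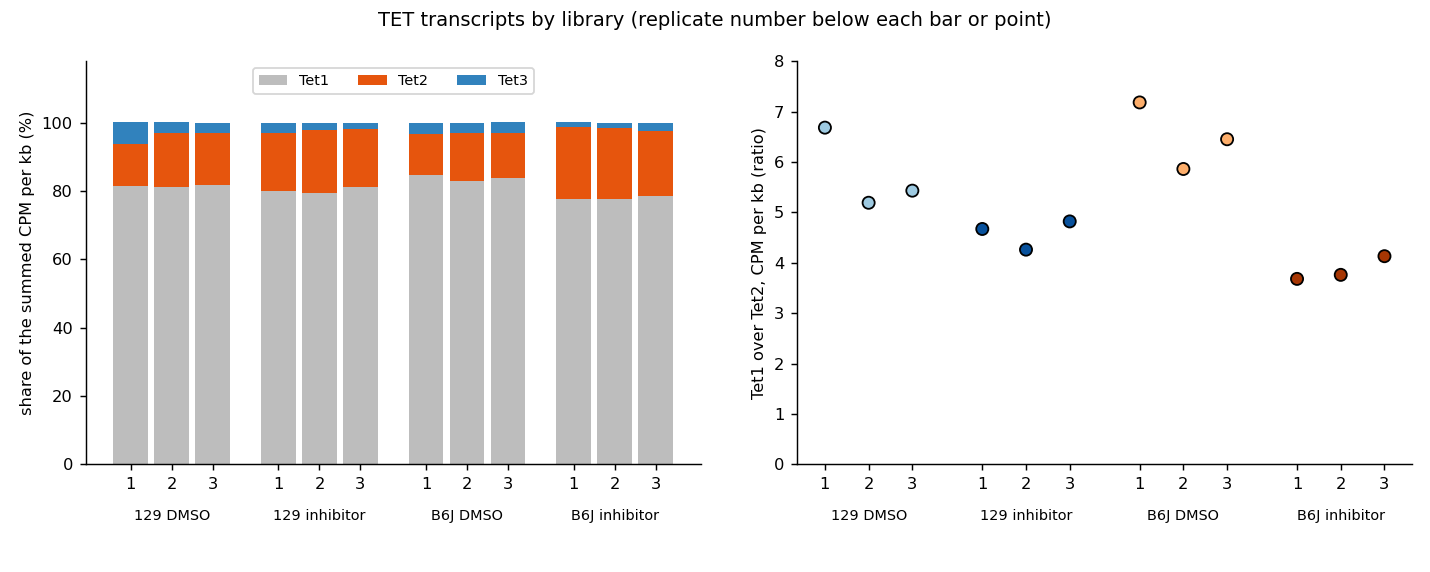
Left, share of Tet1, Tet2 and Tet3 in their summed CPM per kilobase of exon in each library (percent). Right, ratio of Tet1 to Tet2 in the same libraries, where all inhibitor libraries of a background lie below its DMSO libraries (3.68 to 4.13 against 5.86 to 7.18 in B6J).

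The promoter of Tet2 is shown together with that of Cxxc4, its neighbour on chromosome 3, because both genes were called in B6J and moved in opposite directions there. The starts of these divergent genes in the GENCODE annotation lie 691345 bases apart. The Tet2 window below ends at a RefSeq start instead. It lies inside the GENCODE span of Tet2, which on this strand begins at 133545139. Sequences are from RefSeq on GRCm38.p6, run 5′ to 3′ on the strand of the gene and end at the base before the first annotated exon or the RefSeq start. Capitals mark the GC box GGGCGG, searched on both strands, so that CCGCCC is the same motif read on the other strand.
Tet2 promoter, chr3:133544391-133544640, minus strand: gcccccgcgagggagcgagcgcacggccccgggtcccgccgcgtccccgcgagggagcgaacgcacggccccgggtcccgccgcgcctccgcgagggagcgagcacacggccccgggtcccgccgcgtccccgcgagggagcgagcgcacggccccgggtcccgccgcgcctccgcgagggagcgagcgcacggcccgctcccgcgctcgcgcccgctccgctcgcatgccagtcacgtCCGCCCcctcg
Cxxc4 promoter, chr3:134236245-134236483, plus strand: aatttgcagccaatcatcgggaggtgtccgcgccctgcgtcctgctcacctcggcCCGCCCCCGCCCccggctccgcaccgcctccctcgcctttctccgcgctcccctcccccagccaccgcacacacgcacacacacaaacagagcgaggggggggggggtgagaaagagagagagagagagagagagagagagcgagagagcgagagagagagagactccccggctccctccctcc
The Tet2 window of 250 bases held 51 CpG dinucleotides, more than 99.9% of the 32851 promoter windows in the table, whose median was 6, and its GC content was 83.6%. Much of this sequence is a tandem repeat, in which the word ccgcgaggga occurs 5 times at steps of 42 bases. The Cxxc4 window of 239 bases held 19 CpGs, more than 82.1% of promoters, and 2 adjoining GC boxes that begin 195 and 189 bases before the RefSeq start, which lies past 11 trimmed bases. The GC box of Tet2 begins 11 bases before its RefSeq start. A GC box was found in 32.74% of all windows of 250 bases and in 31.16% of those of 239 bases. Of the 10 genes, 8 matched the promoter table (not Cxxc5 and Neil2), and the ETS motif CCGGAAGT, present in 2.877% of all promoters, was in none of the 8 windows.

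The CXXC genes encode partners of TET2. CXXC4 (also called IDAX) and CXXC5 bind unmethylated CpG DNA and TET2, and CXXC4 is known to lower TET2 protein. Cxxc4 (chromosome 3, 134236484 to 134262161, plus strand) was the lowest of the 10 genes and fell most. It had 1.057, 1.974 and 1.295 CPM in 129 with DMSO and 0.4003, 0.2264 and 0.5208 CPM with the inhibitor. In B6J it had 0.8055, 1.468 and 1.605 CPM with DMSO and 0.5062, 0.608 and 0.3993 CPM with the inhibitor. No inhibitor library reached the lowest DMSO library of its background. These levels rest on few reads: 77, 141 and 83 counts in 129 with DMSO and 29, 15 and 43 with the inhibitor. In B6J there were 64, 122 and 119 counts with DMSO and 40, 50 and 38 with the inhibitor. The fall was 3.73-fold in 129 (log2 -1.90, SE 0.38, adjusted p = 0.00242) and 2.56-fold in B6J (log2 -1.36, SE 0.36, adjusted p = 0.0147). Both calls were lost with the fibroblast covariate (-1.55, adjusted p = 0.0727, and -1.13, adjusted p = 0.0964). In B6J the call was also lost without replicate 3 of the DMSO group (adjusted p = 0.0597) or of the inhibitor group (0.0651).

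Cxxc5 (chromosome 18, 35829397 to 35861688, plus strand) was expressed at a far higher level and was not called in any comparison. It had 55.63, 66.56 and 67.28 CPM in 129 with DMSO against 60.02, 47.85 and 47.7 CPM with the inhibitor, and 68.45, 58.34 and 58.46 against 47.72, 49 and 53.75 CPM in B6J. The B6J groups did not overlap and the 129 groups did, through replicate 1 of each. The log2 fold change was -0.28 in 129 (SE 0.11, adjusted p = 0.0706) and -0.30 in B6J (SE 0.11, adjusted p = 0.0653). Without replicate 1 of 129 with DMSO both passed the threshold, at -0.37 (adjusted p = 0.0233) and -0.30 (adjusted p = 0.0373). Without both 129 libraries numbered 1 the values were -0.49 (adjusted p = 0.0024) and -0.30 (adjusted p = 0.0095). Both also passed without replicate 1 of 129 with the inhibitor (adjusted p = 0.0169 and 0.0398), as did B6J when fitted on its 2 groups alone (0.0254).

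Tdg, the glycosylase that removes 5-formylcytosine and 5-carboxylcytosine and whose loss is lethal to the mouse embryo, showed the largest difference between the backgrounds among the 10 genes. It lies on chromosome 10 (82629828 to 82650799, plus strand). It had 22.51, 22.66 and 23.76 CPM in 129 with DMSO and 14.74, 16.6 and 17.02 CPM with the inhibitor. The B6J libraries gave 65.19, 57.51 and 61.51 CPM with DMSO and 45.95, 46.8 and 44.76 CPM with the inhibitor. The 4 groups did not overlap at all, and the lowest B6J library was above the highest 129 library whatever the treatment. B6J was 2.67-fold above 129 in DMSO (log2 1.42, SE 0.078, adjusted p = 3.52e-07) and 2.84-fold above it in the inhibitor (log2 1.51, SE 0.078, adjusted p = 2.55e-07). The inhibitor lowered Tdg by a log2 fold change of -0.51 in 129 (SE 0.077, adjusted p = 0.000411) and -0.42 in B6J (SE 0.076, adjusted p = 0.00147). The difference between these responses was 0.09 (95% interval -0.15 to 0.33, adjusted p = 0.786). All 4 called differences of Tdg held under each of the 24 alternative settings.

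The Tdg level carries a limit from its sequence, since processed copies of its mRNA lie elsewhere in the genome. Of the 50-base words of Tdg transcripts, 41.22% also occur in transcripts of other genes, mainly the pseudogenes Tdg-ps (29.45%) and Gm9855 (15.77%). The 1263 coding bases of Tdg matched Tdg-ps (chromosome 15, 82516311 to 82519278) over their whole length with 17 mismatches (98.65% identity). They matched Gm9855 (chromosome 10, 42054113 to 42055306) with 9 mismatches over 1191 bases and Gm5597 (chromosome 7, 76244746 to 76245938) with 8 mismatches over 1190 bases. A stretch of 120 bases from the longest coding exon (chr10:82641316-82641435, plus strand, GRCm38) shows how little separates them. The capital marks the base of Tdg-ps that differs from Tdg, while Gm9855 and Gm5597 had 0 mismatches there.
Tdg: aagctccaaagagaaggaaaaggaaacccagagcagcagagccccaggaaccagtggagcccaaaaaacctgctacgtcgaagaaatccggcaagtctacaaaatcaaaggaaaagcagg
Tdg-ps: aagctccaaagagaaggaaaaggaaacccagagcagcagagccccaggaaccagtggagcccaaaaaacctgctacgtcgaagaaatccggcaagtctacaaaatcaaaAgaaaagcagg
The copies have no row in the count table, and how reads with several positions were counted is not given in the sources used here. A difference between strains in those copies, or in how their reads were assigned, cannot be told apart here from a difference in Tdg mRNA. The alternative settings all started from the deposited counts, so none of them tested how reads were aligned. This holds for every comparison between the backgrounds. Tdg also shares 367 exon bases (6.829%) with Glt8d2 on the opposite strand, whose group means were 0.855 to 1.25 CPM.

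The Tdg promoter is shown because Tdg changed in 4 of the 5 comparisons. Capitals mark the cAMP response element TGACGTCA and the E-box CACGTG, both of which read the same on either strand.
Tdg promoter, chr10:82629588-82629827, plus strand: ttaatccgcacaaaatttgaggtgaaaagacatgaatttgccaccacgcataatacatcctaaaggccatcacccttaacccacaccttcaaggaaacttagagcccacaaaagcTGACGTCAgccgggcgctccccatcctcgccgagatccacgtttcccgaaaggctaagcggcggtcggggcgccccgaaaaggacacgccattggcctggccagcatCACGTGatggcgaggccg
The window of 240 bases (RefSeq, GRCm38.p6) held 18 CpGs, more than 80.2% of promoters. The response element begins 135 bases and the E-box 28 bases before the RefSeq start, which lies past the 10 bases trimmed from the end of the window, and windows of this length hold these motifs in 1.44% and 5.69% of promoters.

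The NEIL glycosylases, which remove oxidised bases and can process the abasic site after TDG, did not move as a group. Neil3 (chromosome 8, 53586867 to 53639065, minus strand), which prefers single-stranded DNA and also acts on crosslinks, fell in both backgrounds. It had 2.374, 6.791 and 5.212 CPM in 129 with DMSO and 1.836, 2.083 and 2.301 CPM with the inhibitor. In B6J it had 4.518, 5.21 and 6.03 CPM with DMSO and 3.328, 2.383 and 2.227 CPM with the inhibitor. The groups did not overlap, although replicate 1 of 129 with DMSO was close to the inhibitor libraries. The log2 fold change was -1.21 in 129 (SE 0.32, adjusted p = 0.0122) and -0.99 in B6J (SE 0.31, adjusted p = 0.0323). The covariate brought these to -0.03 (adjusted p = 0.968) and -0.24 (adjusted p = 0.545), while the value in 129 without replicate 1 with DMSO was -1.53 (adjusted p = 0.000177). In 129 the call was lost without replicate 2 with DMSO (-0.87, adjusted p = 0.0567). In B6J it was lost with the replicate block (adjusted p = 0.053), and on leaving out DMSO replicate 2 or 3 (0.0706 and 0.103) or inhibitor replicate 2 or 3 (0.11 and 0.112).

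Neil2 (chromosome 14, 63182443 to 63193856, minus strand) fell in 129. It had 4.35, 5.195 and 5.274 CPM in 129 with DMSO and 2.512, 3.154 and 3.016 CPM with the inhibitor, without overlap (log2 -0.77, SE 0.18, adjusted p = 0.00556). In B6J it had 6.557, 4.752 and 4.533 CPM with DMSO and 5.378, 4.669 and 4.245 CPM with the inhibitor, and these overlapped (log2 -0.15, SE 0.17, adjusted p = 0.56). The difference between the responses was 0.62 (95% interval 0.08 to 1.16), with an edgeR adjusted p of 0.299. With the fibroblast covariate the response was -0.31 in 129 (adjusted p = 0.299) and 0.19 in B6J (adjusted p = 0.461), the latter with the opposite sign. Neil1 (chromosome 9, 57142800 to 57148305, minus strand) lay between 6.206 and 8.18 CPM in all 12 libraries. Its log2 fold change was 0.03 in 129 (95% interval -0.25 to 0.30, adjusted p = 0.89) and 0.13 in B6J (-0.15 to 0.40, adjusted p = 0.488). With the covariate the values were -0.04 (adjusted p = 0.902) and 0.08 (adjusted p = 0.753).

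Apex1 (chromosome 14, 50924968 to 50927139, plus strand), the main endonuclease for abasic sites, was the member that rose in both backgrounds. It had 39.84, 41.63 and 46.25 CPM in 129 with DMSO and 54.43, 55.89 and 60.22 CPM with the inhibitor. The values in B6J were 57.94, 53.41 and 49.08 CPM with DMSO and 63.11, 64.84 and 66.74 CPM with the inhibitor. Every inhibitor library was above every DMSO library of its background. The rise was 1.34-fold in 129 (log2 0.42, SE 0.082, adjusted p = 0.00241) and 1.21-fold in B6J (log2 0.28, SE 0.082, adjusted p = 0.0231). In B6J the call was lost without replicate 2 or 3 of the DMSO group (adjusted p = 0.064 and 0.0987) or of the inhibitor group (0.0527 and 0.0567). Pip4p1, a phosphatase gene on the opposite strand, overlaps 877 exon bases of Apex1 (61.674%), and the strand setting of the counting is not given in the sources used here. The log2 fold change of Pip4p1 was 0.15 in 129 (adjusted p = 0.136) and 0.03 in B6J (adjusted p = 0.813), neither of which was called. Its group means were 53.57 to 59.36 CPM, within the range of those of Apex1 (42.57 to 64.9 CPM). Without the strand setting, these values cannot show how shared reads bear on the Apex1 count.

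**Figure D3:**
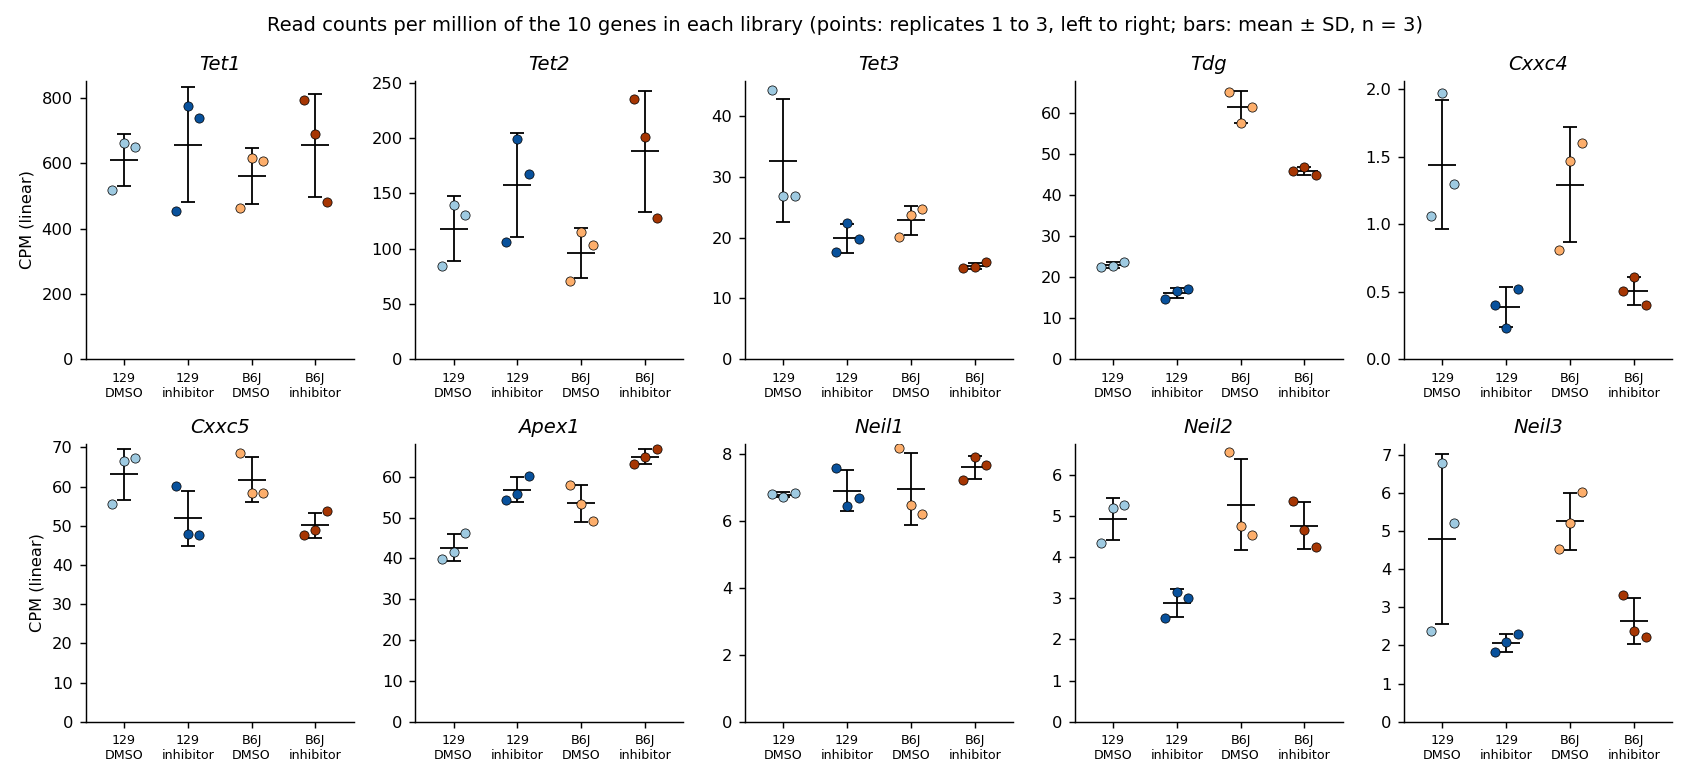
CPM of each of the 10 genes in each of the 12 libraries (points, replicates 1 to 3 from left to right; linear axes from 0), with the mean and SD of each group (n = 3). The 4 Tdg groups do not overlap (14.74 to 17.02, 22.51 to 23.76, 44.76 to 46.8 and 57.51 to 65.19 CPM), and Tet1 is lowest in replicate 1 of 3 groups and in replicate 3 of B6J with the inhibitor.

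Between the backgrounds, 2 of the 10 genes were higher in B6J in DMSO (Tdg and Apex1) and 0 lower, where 20.9% of all tested genes were called, 10.4% higher and 10.5% lower. In the inhibitor 2 were higher (Tdg and Neil2) and 0 lower, where 18.4% of all tested genes were called, 8.9% higher and 9.47% lower. The median log2 difference of the 10 genes was 0.00 in DMSO and 0.22 in the inhibitor, against -0.01 over all tested genes in both. The Apex1 difference in DMSO was 0.33 (SE 0.082, adjusted p = 0.0149), and in the inhibitor it was 0.19 (SE 0.082, adjusted p = 0.139). The former was lost in a fit of the DMSO groups alone (adjusted p = 0.0715) and on leaving out 129 DMSO replicate 2 (0.0532) or B6J DMSO replicate 1 (0.0623). Neil2 was 1.65-fold higher in B6J in the inhibitor (log2 0.72, SE 0.18, adjusted p = 0.0138), and 0.10 on the log2 scale above 129 in DMSO (adjusted p = 0.745). Tet3 was lower in every B6J library than in every 129 library under DMSO, with a log2 difference of -0.51 that missed the threshold (SE 0.18, adjusted p = 0.0639). In the inhibitor it was -0.38 (SE 0.18, adjusted p = 0.187). Without replicate 1 of 129 with DMSO the difference in DMSO was -0.23 (adjusted p = 0.18), and that in the inhibitor was -0.37 (adjusted p = 0.0229).

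On the scale of CPM per kilobase of exon, the order of the genes was led by Tet1 and Apex1 in every group and closed by Cxxc4. In 129 with DMSO the means were 39.4 for Tet1, 29.9 for Apex1, 21 for Cxxc5, 7 for Tet2, 4.28 for Tdg, 3.62 for Neil1, 1.96 for Tet3, 0.985 for Neil2, 0.863 for Neil3 and 0.108 for Cxxc4. Of the neighbours in this order, only Neil2 and Neil3 overlapped between their libraries. In B6J with DMSO Apex1 (37.6) and Tet1 (36.4) overlapped, and Tdg, at 11.4, stood above Tet2, at 5.69, which overlapped Neil1, at 3.71. In 129 with the inhibitor Tdg, at 3, was below Neil1, at 3.69, without overlap. In B6J with the inhibitor Tet2 (11.1) and Tdg (8.53) overlapped, as did Neil2 (0.95) and Tet3 (0.919).

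**Figure D4:**
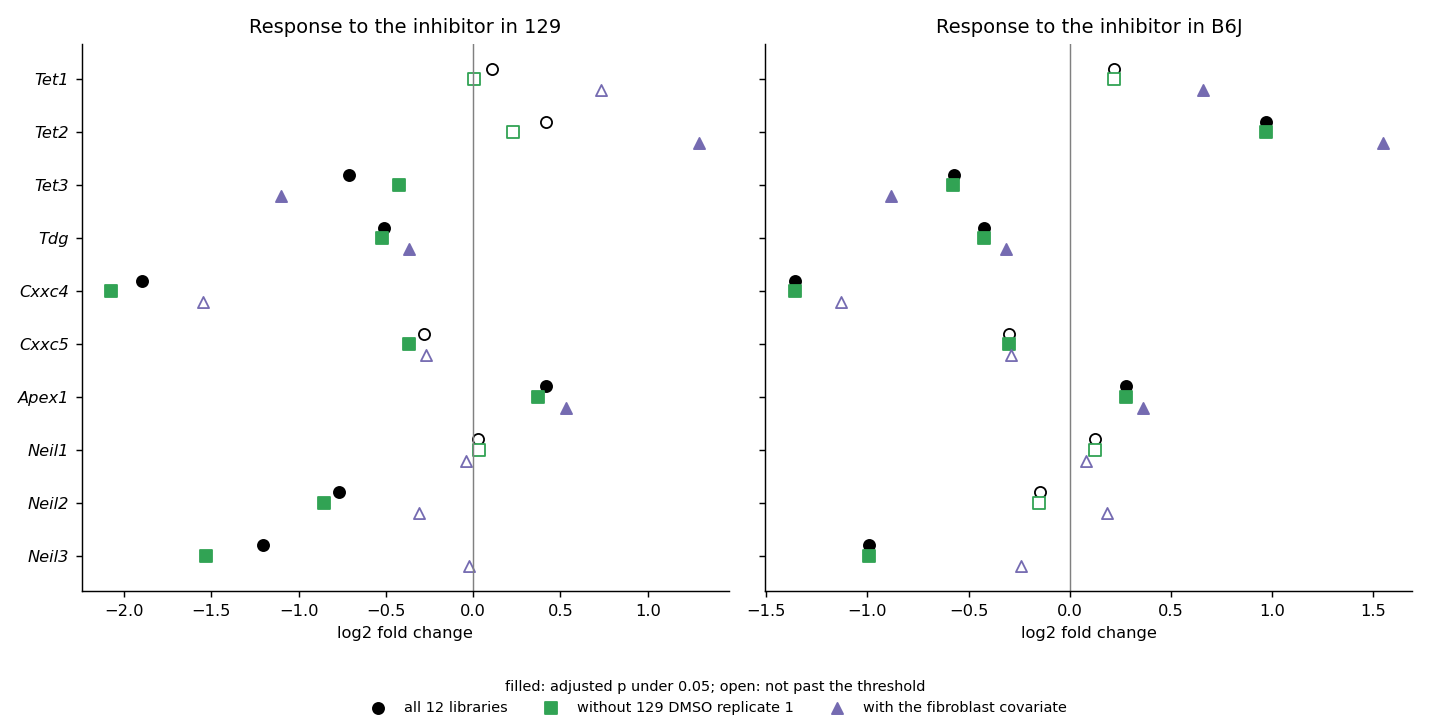
Log2 fold change of each gene in 129 (left) and B6J (right) over all 12 libraries (black), without replicate 1 of 129 with DMSO (green) and with the fibroblast covariate (purple), filled where the adjusted p was under 0.05. With the covariate Tet1 and Tet2 move to the right in both panels, and Neil3 moves to -0.03 in 129 and -0.24 in B6J.

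Several genes ran close to a member over the 12 libraries, by the root mean square (RMS) difference in log2 CPM after centring each gene on its mean, among 12678 candidates. For Tet2, whose own RMS deviation was 0.503, the closest were the chromatin reader gene Baz2b (0.086), Zfp74 (0.154) and the Fanconi anaemia gene Fancm (0.155). For Tdg, with an RMS deviation of 0.77, they were the transcription factor gene Myb (0.128), the chromatin protein gene Hmga1 (0.148) and Ide (0.158), the insulin-degrading enzyme. For Tet3 (0.425) they were Tirap (0.157), Dusp3 (0.166) and Ndst2 (0.169). For Cxxc4 (0.888) the closest 3 of 12679 candidates, Bcl11b, Gpm6b and Lin28b, were farther away at 0.324 to 0.342.

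Other genes of the pathway were counted from lists that share no gene with the 10. Of 7 other DNA glycosylases, 1 rose (Ung) and 1 fell (Mpg) in each background. Their median log2 fold change was 0.05 in 129 and 0.16 in B6J. Of all tested genes 17.4% rose and 18.2% fell in 129, and 14.6% rose and 16.5% fell in B6J, with medians of -0.01 and 0.00. Ung, the uracil-DNA glycosylase, had 80.32, 90.51 and 93.58 CPM in 129 with DMSO and 134.7, 137 and 140.9 CPM with the inhibitor. It had 131.2, 115.5 and 112.6 CPM in B6J with DMSO and 185.2, 171 and 178.6 CPM with the inhibitor. Ung thus moved opposite to Tdg under the inhibitor (log2 0.64, SE 0.077, adjusted p = 8.85e-05 in 129, and 0.57, SE 0.077, adjusted p = 0.000193 in B6J). Like Tdg it was higher in B6J, by 0.44 in DMSO (adjusted p = 0.00191) and 0.37 in the inhibitor (adjusted p = 0.00539). Mpg, which removes alkylated bases, changed by -0.34 in 129 (adjusted p = 0.044) and -0.35 in B6J (adjusted p = 0.0444). Each of these Mpg calls was lost in 13 of 24 alternatives (adjusted p up to 0.381 in 129 and 0.21 in B6J, both with the covariate), among them the replicate block, no filter and most fits without 1 library.

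Of 11 genes that act after the glycosylase, 2 rose (Parp1, Xrcc1) and 1 fell (Lig3) in 129, and 4 rose (Lig1, Parp1, Pcna, Xrcc1) and 0 fell in B6J. Their median log2 fold changes were 0.00 and 0.09, against -0.01 and 0.00 over all tested genes. Of the latter 35.7% were called in 129 and 31.1% in B6J. Lig3, a DNA ligase that pairs with XRCC1, changed by -0.43 in 129 (adjusted p = 0.0333) and -0.33 in B6J (adjusted p = 0.0928). Its B6J groups did not overlap (95.26 to 106.2 CPM with DMSO, 76.13 to 83.14 with the inhibitor). The B6J fall was called in the fit of the B6J groups alone (adjusted p = 0.0052). It was also called without both 129 libraries numbered 1 (0.00129). In 129 the Lig3 value was 0.04 with the fibroblast covariate (adjusted p = 0.859). Its call was also lost in the fit of the 129 groups alone (0.0923) and without 129 DMSO replicate 2 or 3, 129 inhibitor replicate 1 or B6J inhibitor replicate 2 (0.0938, 0.107, 0.0674 and 0.0505). The strand-break scaffold gene Xrcc1 rose by 0.34 in 129 (adjusted p = 0.00296) and 0.30 in B6J (adjusted p = 0.00591). Parp1, which senses strand breaks, rose by 0.34 (adjusted p = 0.035) and 0.32 (adjusted p = 0.0481), calls lost in 6 and 8 of 24 alternatives (adjusted p up to 0.0952 and 0.164), the replicate block among them in both. Lig1 and Pcna, a ligase and a clamp that also serve DNA replication, rose by 0.26 and 0.23 in B6J (adjusted p = 0.0284 and 0.0221). Both were lost without B6J DMSO replicate 2 or 3 (adjusted p up to 0.111 for Lig1 and 0.0773 for Pcna), and Lig1 also with the replicate block (0.0538). With the covariate Pcna was also called higher in 129 (0.26, adjusted p = 0.0495). The gap-filling polymerase gene Polb had values of -0.15 and -0.06, neither of which was called. Between backgrounds, 1 gene was higher and 1 lower in B6J in DMSO (Pcna, Parp2). In the inhibitor 2 were higher and 1 lower (Apex2, Pcna, and Parp2). Of all tested genes 20.9% differed in DMSO and 18.4% in the inhibitor.

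Of 17 genes for TET partners, cofactor supply and readers of modified bases, 7 rose and 3 fell in 129. In B6J 6 rose and 2 fell. The medians were 0.11 in 129 and -0.01 in B6J, against -0.01 and 0.00 over all tested genes. Of the latter 35.7% were called in 129 and 31.1% in B6J. Idh1, Idh2, Nanog, Prdm14, Sall1 and Sall4 rose in both and Wdr76 in 129, while Mgea5 (now Oga) and Slc23a1 fell in both and Uhrf2 in 129. The Mgea5 calls were lost with the fibroblast covariate (-0.12, adjusted p = 0.292 in 129, and -0.09, adjusted p = 0.35 in B6J), and in B6J also without DMSO replicate 3 or any 1 of the inhibitor libraries (adjusted p up to 0.0793). The Sall1 call in 129 was lost in the fit of the 129 groups alone (adjusted p = 0.0571) and without inhibitor replicate 2 or 3 (0.0607 and 0.0568). Prdm14, a regulator known to recruit TET proteins, rose from 7.822, 12.74 and 14.98 to 36.86, 45.28 and 45.7 CPM in 129 and from 10.45, 8.999 and 7.609 to 33.56, 32.22 and 31.23 CPM in B6J. Its log2 fold changes were 1.85 (adjusted p = 4.76e-05) and 1.84 (adjusted p = 4.92e-05). Slc23a1, a transporter of vitamin C, which TET enzymes use as a helper, fell from 4.515, 3.963 and 2.481 to 0.5108, 1.072 and 0.5572 CPM in 129 and from 5.248, 6.701 and 5.788 to 0.9491, 0.6809 and 0.8406 CPM in B6J. These falls were -2.36 (adjusted p = 0.000151) and -2.84 (adjusted p = 3.97e-05) on the log2 scale and held under all 24 alternatives. The second transporter gene, Slc23a2, was not called in either background (-0.20 and -0.02). Idh1 and Idh2, whose enzymes make the TET cosubstrate 2-oxoglutarate, rose by 0.78 and 0.69 in 129 (adjusted p = 2.68e-05 and 0.0027) and by 0.55 and 1.02 in B6J (adjusted p = 0.000298 and 0.000199). With the covariate the Idh2 call in 129 was lost (0.58, adjusted p = 0.0592), and Wdr76 was also called higher in B6J (0.32, adjusted p = 0.0226). The pluripotency factor gene Nanog, whose protein binds TET1, rose by 0.96 in B6J (adjusted p = 0.00162). Of 7 other CXXC zinc finger genes, 1 rose in 129 (Kmt2b, 0.35, adjusted p = 0.0033). In B6J 2 rose (Mbd1, 0.30, and Kmt2b, 0.25) and 1 fell (Fbxl19, -0.35). The medians were 0.07 in 129 and 0.09 in B6J. These counts too stand beside 35.7% and 31.1% of all tested genes called. The Kmt2b call in B6J was lost without replicate 2 or 3 of either B6J group (adjusted p from 0.0512 to 0.0897). Fbxl19 was also called lower in 129 in some alternatives, among them the fit of the 129 groups alone (-0.22, adjusted p = 0.0368).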

How the data were processed

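The authors deposited 1 table of whole-number read counts per gene for the 12 libraries, not normalized. RNA was extracted with Trizol, made into TruSeq Stranded mRNA libraries and sequenced on a NovaSeq 6000, per the labels' protocols. STAR 2.7.10, SAMtools, HTSeq 0.6.1p1 and DESeq are named per the submitters' processing notes, with the builds mm10 and GRCm38. Not given in the sources used here are the annotation, the strand setting and how multi-mapping reads were counted.

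Tests on the counts used edgeR 4.0.16 (R 4.3.3). The 16627 genes passing filterByExpr (min.count 10, min.total.count 15) were scaled by TMM and fitted by quasi-likelihood (glmQLFit, glmQLFTest) with 4 group means over all 12 libraries. The fit gave 5 contrasts: the inhibitor response in each background, the difference between the responses (B6J minus 129), and B6J minus 129 under each treatment. Genes with a p under 0.05 after Benjamini-Hochberg adjustment over all tested genes were called, and a printed adjusted p is edgeR's. Levels are CPM with TMM. Exon lengths, positions and shared words come from GENCODE M21. Alternatives were DESeq2 1.42.0, limma-voom (limma 3.58.1), RLE factors, library totals alone, no filter, a min.count of 50, a fit of the groups compared alone, a replicate block, a fibroblast covariate, each library left out, both 129 libraries numbered 1 left out, and halved counts. The script was tested on simulated counts.

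Low values were mostly even (70.09 to 73.37% of values from 1 to 20 per library, against 52.06 to 55.17% of those from 101 to 1000). In 129 the libraries numbered 1 deviated together (correlation of 0.444 between DMSO and inhibitor). Those numbered 2 and 3 gave 0.302 and 0.222, near the 0.207 and 0.201 of 2 with 3 and 3 with 2. Only number 1 thus stood out, and a pairing of numbers 2 and 3 was not shown. In B6J equal numbers gave -0.187, 0.086 and -0.17. The genes and lists were chosen with earlier results of these data known. The text names all 10 genes, the called genes of each list with the largest changes (up to 4), and the 3 genes most alike for Tet2, Tet3, Tdg and Cxxc4 with a mean of at least 1 CPM. Polb, Slc23a2, Pip4p1 and Glt8d2 were named after their values were seen. Oga was matched under its older symbol Mgea5.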

Additional observations from a re-analysis of the deposited data

Results flagged for a closer look

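Uhrf2, which encodes a reader of 5-hydroxymethylcytosine and was in the list of TET partners and readers, responded differently in the 2 backgrounds by the test of the interaction. It had 79.7, 82.87 and 80.61 CPM in 129 with DMSO and 43.95, 47.98 and 50.5 CPM with the inhibitor. In B6J it had 52.64, 54.78 and 56.3 CPM with DMSO and 52.8, 48.04 and 41.98 CPM with the inhibitor. The 129 DMSO libraries stood above the other 9, which lay close together. The log2 fold change was -0.77 in 129 (adjusted p = 5.56e-05) and -0.20 in B6J (adjusted p = 0.108), and the difference was 0.57 (edgeR adjusted p = 0.045). The difference ran from 0.51 to 0.66 over 23 alternatives, and its call was kept in 10 and lost in 13 of them (adjusted p from 0.00141 to 0.127). In DMSO the log2 difference of B6J from 129 was -0.57 (adjusted p = 0.000769), a call that held in all 24 alternatives.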

How the results depend on the processing

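Over the 10 genes and 5 comparisons, 1190 alternative values were computed: 1141 kept the call of the reported value, 32 lost it, 17 gained one, and 0 reversed a called direction. Of the 16 called differences, 6 were called in every alternative (Tdg in 4 comparisons, Apex1 in 129, Neil2 between backgrounds in the inhibitor). Of 4998 values of the listed pathway genes, 114 lost a call, 111 gained one and 2 reversed, both in 129 with the fibroblast covariate (Lig3 to 0.0398, adjusted p = 0.859, and Dcaf1 to 0.31, adjusted p = 0.0286). The cause was not tested.

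With the fibroblast covariate 2 of the 10 genes rose and 2 fell in 129, and 3 rose and 2 fell in B6J. With the replicate block, 2 fell in B6J, and in 129 the block changed no call of the 10 genes. In DMSO 1 gene was higher in B6J in the fit of the groups compared alone, and 1, Tet3, was lower with DESeq2, library totals alone, the fibroblast covariate or a block in 129 only (added after seeing the data). In the inhibitor 1, Tet3, was lower without both 129 libraries numbered 1. Leaving out 1 library gave 4 to 6 lower in 129, 0 to 2 higher and 1 to 5 lower in B6J, and between backgrounds in DMSO 1 to 2 higher and 0 to 1 lower, and in the inhibitor 0 to 1 lower.

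Over all genes, the 246 differences between responses became 798 with DESeq2, 163 with limma-voom, 156 with the replicate block, 820 with the covariate, 608 without both 129 libraries numbered 1 and 460 with the block in 129 only (73 to 586 leaving out 1 library). The 3468 differences between backgrounds in DMSO became 2247 in the fit of these groups alone (2569 to 4056 leaving out 1 library).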
